A study of Mus musculus with 5 samples.

Results

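The genes described here encode the machinery that takes a secreted protein into the endoplasmic reticulum (ER) and carries it to the Golgi and back. Members were chosen by gene symbol from the SLAMseq tables. They comprised the signal recognition particle (Srp), the translocon and its partners (Sec61, Sec62, Sec63, Ssr), signal peptidase (Spcs), the COPII coat (Sar1, Sec13, Sec16, Sec23, Sec24, Sec31), the p24 cargo receptors (Tmed), the SEC22 family and the COPI coat (Cop). This gave 58 of 20365 gene names, of which 57 fell into 7 steps of secretion and 1, Tmed10-ps, was a processed pseudogene.

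SLAMseq was performed on cardiac fibroblasts (CF), the matrix-producing cells of the heart, to read transcript level and new RNA synthesis from the same library. CF came from hearts of adult healthy male C57Bl/6J wildtype mice by collagenase perfusion and were grown to confluency, so all values describe cultured cells. The isolation described in the paper also discarded epicardial cells, spun down cardiomyocytes and depleted endothelial and immune cells with magnetic beads. In the labeled group (3 libraries), cells received 0.1 mM 4-thiouridine (S4U) for 12 h. In the unlabeled group (2 libraries), cells were kept for the same time without S4U. RNA of both groups was alkylated with iodoacetamide, and sequencing then gives C at a T position that carried S4U. Dividing the number of such changes by the covered T positions of a 3′ UTR interval gives the T>C conversion rate, which is higher the more of a transcript was made during labeling. Covered T positions are summed over reads, so their number can exceed the number of T bases in the interval.

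A protein with a signal peptide is recognised at the ribosome by the signal recognition particle and threaded through the SEC61 channel. Signal peptidase then cuts off the signal peptide. COPII vesicles, built on the GTPase SAR1, carry cargo from ER exit sites toward the Golgi, and COPI vesicles bring receptors and escaped ER residents back. The p24 proteins cycle between both compartments as cargo receptors, and SEC22B is a SNARE of the fusion step. Fibroblasts depend on this route for procollagen, a cargo too long for a usual vesicle.

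Between 506045 and 1843033 reads per library were counted with 1 interval per gene, and labeled replicate 3 had the fewest. The read number behind the deposited CPM was 10975173 to 14616278 and was highest in labeled replicate 3. A smaller part of its reads was thus counted. The library-wide T>C rate was 0.0353 to 0.0358 in the labeled libraries and 0.000652 to 0.00111 in the unlabeled libraries. All 9 fibroblast markers had reads in every library, with summed levels of 39018 to 42627 CPM relative to counted reads in the labeled and 31754 to 35223 in the unlabeled libraries. Most of each sum came from Col1a1, Col1a2 and Col3a1. Col1a1 was read at 12755 to 13293 in the labeled and 8784 to 9659 in the unlabeled libraries. Pdgfra (516 to 525 and 722 to 841) and Ddr2 (245 to 332 and 382 to 453) were lower in the labeled libraries. The other markers overlapped between the groups. A single marker such as Ddr2 stood far nearer to the endothelial sum that follows. The sums of 5 endothelial markers (113 to 223), 6 immune markers (29.6 to 46.0) and 5 cardiomyocyte markers (1.90 to 8.03) were far lower, with Cd3e at 0 in all 5 libraries. The 4 pericyte and smooth muscle markers summed to 4.02 to 13.8, and the 4 epicardial markers to 0.543 to 5.93, with Msln and Krt19 at 0. In bulk RNA, fewer cells of a type and less RNA per cell cannot be told apart. Replicates 1 of both groups stood apart from the other 3 libraries, and values that move with this are given at the end.

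Reads were found in every library for 52 of the 58 members. The paralogs Srp54a and Srp54b and the p24 members Tmed6 and Tmed11 had no read in any library. The whole counted interval of Srp54b (1262 bases) is identical to the first 1262 of the 2476 bases of that of Srp54a, so a read from this stretch could not have been assigned to one of them. Srp54c also has an interval of 2476 bases without a read, with the same number of T (797) as that of Srp54a. Its sequence was not compared. The lack of reads thus does not show that these genes were silent. Sec31b had 1 read in labeled replicate 2 and 2 in unlabeled replicate 1. Srp54c had 5, 6 and 0 reads in the labeled libraries, on another interval of 823 bases. At least 1000 covered T positions in every labeled library, the minimum set for comparing rates between genes, were reached by 30 members. Of the 58 intervals, 56 lay within annotated exons, the exceptions being Sec13, which only overlapped one, and Tmed10-ps.

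The promoters of the members shared a sequence feature that the choice by symbol did not use. Windows from 250 bases before to 50 after the start site (RefSeq, build GRCm38.p6) were found for 49 members. The core ACGTG, on either strand, is part of the elements bound by the unfolded protein response factors XBP1 and ATF6. It occurred in the windows of 32 of 49 members (65.3%) and of 21.8% of 27025 genes in all. Among genes over the T coverage minimum, it occurred for 18 of 25 members (72.0%) and for 32.4% of 1683 genes. In a list of other genes of the secretory pathway, described further on, it occurred for 28 of 63 (44.4%). By step, it was present for 11 of 14 COPII genes, 6 of 8 COPI genes, 4 of 6 signal recognition particle genes, 4 of 8 translocon genes, 4 of 8 p24 genes, 2 of 3 SEC22 genes and 1 of 2 signal peptidase genes. The longer form TGACGTGG, which contains ACGTG and was searched for after earlier values had been seen, occurred for 5 of 49 members (10.2%) against 1.54% and 0.714% of the same reference sets. All 5 encode coat proteins or their scaffold: Copb1 and Copb2 of COPI, and Sec16b, Sec23a and Sec24d of COPII. Their windows are printed with the match on either strand in capitals. They were picked for this match, so the shared letters follow from the choice.

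Copb1, chr7:114254691-114254718, minus strand: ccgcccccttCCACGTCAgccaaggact
Copb2, chr9:98563714-98563741, plus strand: cccggaagttCCACGTCAgtgggttggc
Sec16b, chr1:157506742-157506769, plus strand: tctgtgtggcTGACGTGGcacggcagtt
Sec23a, chr12:59011994-59012021, minus strand: tcctccccttTGACGTGGcagaggcggc
Sec24d, chr3:123267460-123267487, plus strand: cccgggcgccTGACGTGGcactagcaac

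In Copb1, Copb2, Sec16b and Sec24d the match began 7 to 44 bases before the start site (positions -28, -7, -44 and -26), and in Sec23a it began at position 6. The full ER stress response element, CCAAT followed after 9 bases by CCACG, was found in no member window (0 of 49, against 0.137% of all genes). For comparison, it was found in the promoter of Hspa5, the ER chaperone BiP and a textbook target of this response, which is printed with both of its letter groups in capitals.

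Hspa5, chr2:34772021-34772047, plus strand: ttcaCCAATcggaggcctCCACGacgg

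These matches describe letters in a window. Binding was not measured.

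Transcripts of the pathway were abundant in CF. Since 3′ end libraries give one read end per transcript, levels are CPM relative to counted reads without division by length, and ends outside the counted interval are missed. The median level of the 52 members with reads in every labeled library was 137 CPM relative to counted reads (quartiles 52.8 and 265). That of all 11420 genes with such reads was 30.7. By step, the median level was 267 for 10 translocon genes, 262 for 9 p24 receptors, 216 for 3 signal peptidase subunits, 133 for 8 COPI genes, 112 for 13 COPII genes, 104 for 5 signal recognition particle genes and 22 for 3 SEC22 genes.

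**Figure D1:**
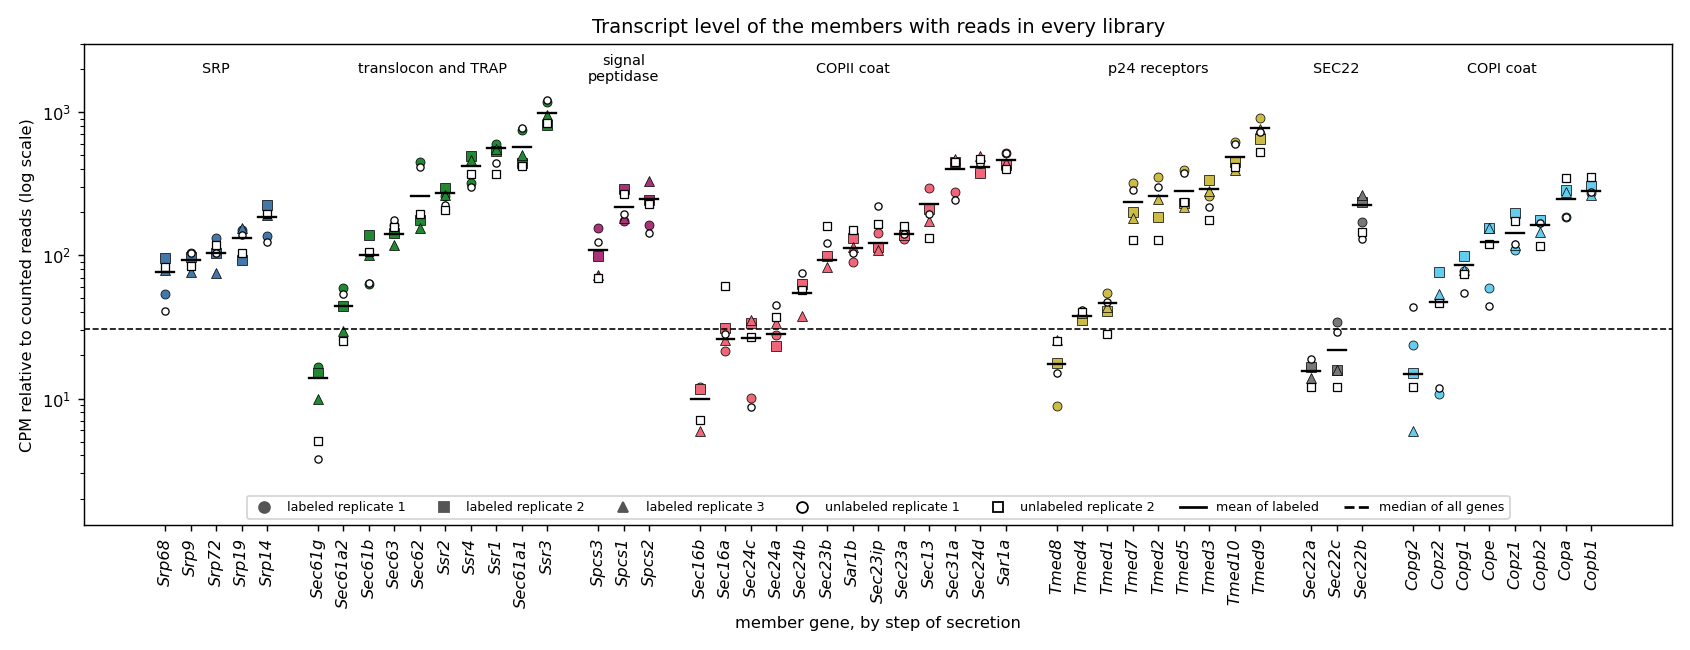
Transcript level (CPM relative to counted reads, log scale) of the members with a step and reads in every library, ordered within each step of secretion. Filled symbols are the 3 labeled and open symbols the 2 unlabeled libraries, and bars the labeled mean. The dashed line is the median of all genes with reads in every labeled library (30.7). Ssr3 (988) and Tmed9 (777) stand highest, and in 5 of 7 steps the means span more than a factor of 10.

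The most abundant member was Ssr3, the gamma subunit of the translocon-associated protein complex TRAP, which helps signal peptides insert into the channel. Its level was 1187, 814 and 962 in the labeled libraries (988 ± 187, SD, n = 3) and 1220 and 836 in the unlabeled libraries, so the groups overlapped. The other TRAP subunits followed with 563 ± 30.3 for Ssr1, 424 ± 93.1 for Ssr4 and 272 ± 18.5 for Ssr2 (SD, n = 3). Of the channel itself, Sec61a1 (pore subunit) reached 568 ± 165, while the small subunits Sec61b and Sec61g were counted at 101 ± 37.3 and 13.8 ± 3.48. Both small subunits were counted on short intervals (171 and 160 bases).

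Among the p24 receptors, Tmed9 led with 914, 649 and 767 in the labeled and 732 and 525 in the unlabeled libraries (labeled mean 777 ± 132, SD, n = 3). Tmed10, an obligate partner in many p24 complexes, followed at 489 ± 118, and Tmed3, Tmed5, Tmed2 and Tmed7 lay between 236 and 293. Tmed1, Tmed4 and Tmed8 were far lower, at 46.3, 37.6 and 17.4. The lowest library of Tmed7 (182) was thus above the highest of Tmed1 (54.6).

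The COPII genes spanned the widest range for a coat. Sar1a, the GTPase that starts coat assembly, had the highest mean with 523, 428 and 443 in the labeled and 515 and 399 in the unlabeled libraries (labeled mean 465 ± 50.9, SD, n = 3). Sec24d, a cargo-binding adaptor of the inner coat, reached 416 ± 65.9 and the outer coat gene Sec31a 399 ± 107. These overlapped, and Sec31a was above Sar1a in labeled replicates 2 and 3 (449 and 472). The exit-site scaffolds Sec16a and Sec16b were counted at 26.1 ± 4.71 and 9.90 ± 3.44.

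In the COPI coat, Copb1 was highest with 271, 307 and 265 in the labeled and 277 and 350 in the unlabeled libraries (labeled mean 281 ± 22.9, SD, n = 3), next to Copa (250 ± 57.0). These neighbours overlapped between libraries. Of the signal recognition particle, Srp14, which forms the domain that slows elongation together with Srp9, was highest with 138, 224 and 192 in the labeled and 125 and 194 in the unlabeled libraries. Spcs2 was the highest signal peptidase gene with 163, 243 and 332 in the labeled and 144 and 230 in the unlabeled libraries, and its range covered that of Spcs1 (174, 290 and 184 in the labeled libraries). Sec22b, the SNARE, was counted at 171, 236 and 265 in the labeled libraries, above its relatives Sec22c (22 ± 10.6) and Sec22a (15.7 ± 1.61).

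For each of the 9 paralog pairs listed, 1 partner was higher in all 3 labeled libraries with no overlap of levels. Other pairs of genes were not counted, and mean levels over all genes with reads ran from 1.15 to 14329. The lack of overlap is thus not shown to be particular to paralogs. The mean was 465 for Sar1a and 112 for Sar1b, 416 for Sec24d and 26.4 for Sec24c, 54.7 for Sec24b and 28.3 for Sec24a, 141 for Sec23a and 93.4 for Sec23b, and 26.1 for Sec16a and 9.90 for Sec16b. In the outer coat and the channel it was 399 for Sec31a and 0.279 for Sec31b, and 568 for Sec61a1 and 44.5 for Sec61a2. In COPI it was 85.3 for Copg1 and 14.8 for Copg2, and 142 for Copz1 and 47.0 for Copz2. With 3 libraries against 3, an exact permutation test cannot go below p = 0.1. A blastn search found no aligned stretch between the intervals of these pairs.

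Labeling was detected in every member that could be tested. The T>C rate was higher in the labeled libraries for 52 of 52 members (beta-binomial likelihood-ratio test, unadjusted p below 0.05, two-sided), against 95.2% of 11179 genes in the same test. In all 30 well covered members, each labeled rate lay above both unlabeled rates. This count was not made over all genes of the same coverage. The median rates of those genes were 0.0378, 0.0390 and 0.0388 in the labeled and 0.000625 and 0.000383 in the unlabeled libraries. The separation is thus not shown to be particular to the members. The unlabeled rates of the 30 members had medians of 0.000665 and 0.000278 in replicates 1 and 2, and the highest was 0.00263 (Copb1, replicate 1). In Cope no conversion was seen in either unlabeled library, which allows a rate of up to 0.00284 and 0.00159 (3 conversions of the covered T positions, counting error only).

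Between members, the T>C rate was compared with the median gene of the same libraries. The median rate of the 30 well covered members was 0.0418 (quartiles 0.0372 and 0.0448, range 0.0104 to 0.0486), and that of 2123 genes of the same coverage was 0.0388 (quartiles 0.0343 and 0.0423). By step, the median was 0.0439 for 8 COPII genes, 0.0435 for 4 COPI genes, 0.0414 for 2 signal recognition particle genes, 0.0410 for 2 signal peptidase genes, 0.0409 for 7 translocon genes and 0.0369 for 6 p24 receptors. Sec22b alone stood for its family at 0.0469.

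**Figure D2:**
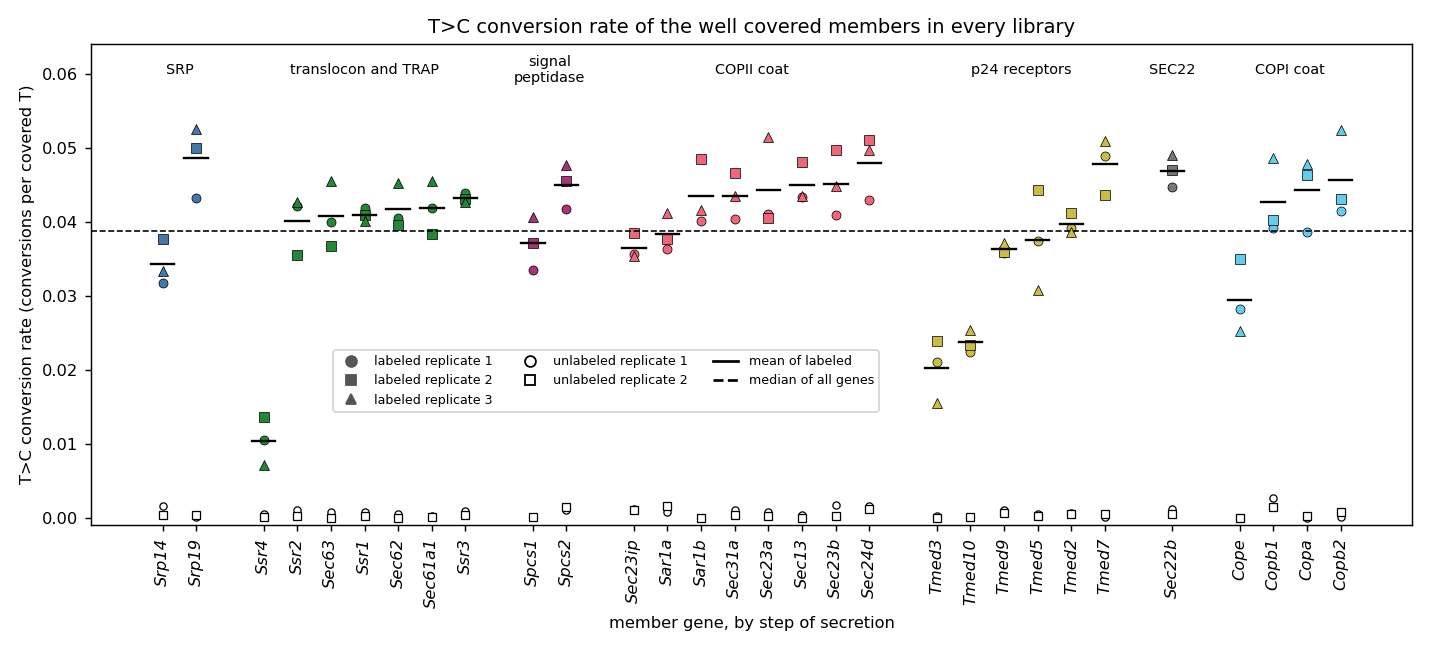
T>C conversion rate (conversions per covered T) of the 30 members that reached the minimum of 1000 covered T positions, ordered within each step. Filled symbols are labeled and open symbols unlabeled libraries, bars the labeled mean, and the dashed line the median of all genes over that minimum (0.0388). Most members lie near or above this line, Ssr4, Tmed3, Tmed10 and Cope lie below it, and the unlabeled libraries lie near 0.

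Of the 30 members, 4 had a rate below the median gene and 8 a rate above it (limma, one-sample test of log2 odds, Benjamini-Hochberg adjusted p below 0.05). Among all 2123 genes, 21.1% were called below and 10.3% above. In direction the members thus leaned to the higher side (13.3% below, 26.7% above), and this lean was not tested. The 8 called above became 4 without labeled replicate 1, 4 without labeled replicate 2 and 6 without labeled replicate 3, while all genes called above fell from 10.3% to 3.77%, 5.32% and 8.71%. Differences are given below as log2 odds against the median gene, with SE.

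Ssr4, the delta subunit of TRAP, had the lowest rate of all members. It was 0.0105, 0.0136 and 0.00720 in the labeled libraries (0.0104 ± 0.00318, SD, n = 3) and 0.000586 and 0.000166 in the unlabeled libraries. This was below the median gene (log2 odds -1.97 ± 0.14, SE, limma adjusted p = 2e-06), and only 1.88% of the 2123 covered genes had a lower mean rate. The interval, chrX:72834309-72834434 in mm39, holds the end of the coding sequence and the 3′ UTR of Ssr4, and 27.0% of its bases are T. The other TRAP subunits did not share this. Ssr3 lay above the median gene with 0.0439, 0.0430 and 0.0427 (log2 odds 0.17 ± 0.043, SE, limma adjusted p = 0.0155), a call lost without labeled replicate 1 (adjusted p = 0.10) or 2 (adjusted p = 0.0606). Ssr1 (0.0409 ± 0.000853) and Ssr2 (0.0401 ± 0.00401, SD, n = 3) were not called. No labeled library of Ssr4 reached the lowest value of another covered translocon gene (0.0355, Ssr2).

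The other low rates belonged to p24 receptors and a COPI subunit. Tmed3 had rates of 0.0211, 0.0239 and 0.0155 in the labeled and 0.000202 and 0 in the unlabeled libraries, and its log2 odds against the median gene were -0.98 ± 0.11 (SE, limma adjusted p = 0.0001). Its counted interval, chr9:89581256-89581795, lies in the 3′ UTR. Tmed10 had rates of 0.0224, 0.0233 and 0.0254 in the labeled and 0.000179 and 0.00012 in the unlabeled libraries (log2 odds -0.73 ± 0.055, SE, limma adjusted p = 4e-06). The first 601 bases of its interval match the pseudogene Tmed10-ps at 99.3%, so reads of the pair are uncertain, and the rate listed for Tmed10-ps was 0.0208 ± 0.00299 (SD, n = 3, on as few as 99 covered T positions). Cope, the epsilon subunit of COPI, had rates of 0.0283, 0.0349 and 0.0253 (log2 odds -0.40 ± 0.12, SE, limma adjusted p = 0.0297). The call for Cope was lost without labeled replicate 1 (adjusted p = 0.123) and without labeled replicate 3 (adjusted p = 0.153), and also with a minimum of 500 covered T positions (0.0549) and with centring on the overall rate (0.0847). Those for Ssr4, Tmed3 and Tmed10 held in each of the 8 alternatives run.

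**Figure D3:**
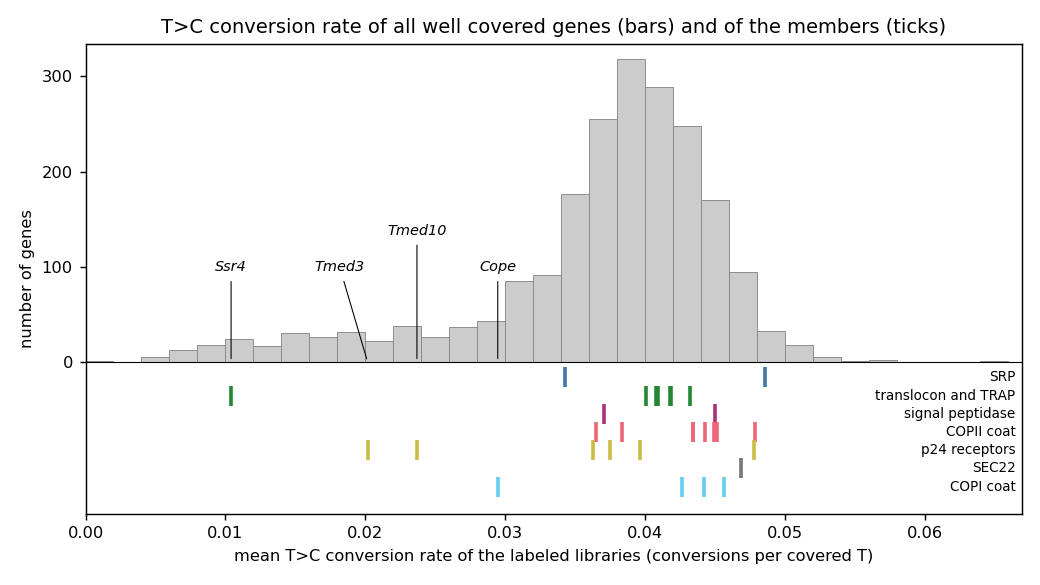
Number of well covered genes (grey bars, 2123 genes) by mean T>C conversion rate of the labeled libraries, in bins of 0.002, with each of the 30 members as a tick below, 1 row per step. Most members sit inside the main peak, and Ssr4, Tmed3, Tmed10 and Cope lie in its lower tail.

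The p24 receptors had calls on both sides of the median gene. Tmed7 had the highest rate among the covered ones, with 0.0488, 0.0436 and 0.0509 in the labeled and 8.43e-05 and 0.000569 in the unlabeled libraries (log2 odds 0.32 ± 0.074, SE, limma adjusted p = 0.00905, and 0.0999 without labeled replicate 1). Tmed9, Tmed5 and Tmed2 were not called, with mean rates of 0.0363, 0.0375 and 0.0396. The labeled libraries of Tmed7 (lowest 0.0436) and Tmed3 (highest 0.0239) did not overlap. Among the p24 members under the coverage minimum, Tmed4 and Tmed1 had mean rates of 0.0227 ± 0.00847 and 0.0239 ± 0.00831 (SD, n = 3), on as few as 449 and 274 covered T positions.

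The mean rates of the 8 COPII genes lay between 0.0365 and 0.0479. Sec24d had the highest rate with 0.0429, 0.0511 and 0.0497 in the labeled and 0.00159 and 0.00117 in the unlabeled libraries (log2 odds 0.32 ± 0.058, SE, limma adjusted p = 0.00207), and this call held in each of the 8 alternatives. The covered genes of the outer coat were above the median gene, namely Sec13 (log2 odds 0.23 ± 0.065) and Sec31a (0.17 ± 0.056, SE), with limma adjusted p = 0.0248 and 0.0389. Each of these calls was lost in some alternatives, with adjusted p up to 0.204 and 0.328. The lowest COPII rate was that of Sec23ip, a SEC23-binding protein, with 0.0356, 0.0385 and 0.0354 in the labeled and 0.00122 and 0.00108 in the unlabeled libraries, and it was not called (log2 odds -0.080 ± 0.085, SE).

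Of the paralog pairs, 2 had enough coverage in both partners to compare rates. Sar1a had rates of 0.0363, 0.0377 and 0.0412 and Sar1b of 0.0401, 0.0485 and 0.0416, with a difference of -0.00502 (exact permutation test, two-sided p = 0.2, adjusted p = 0.4 over 2 pairs). Sec23a had rates of 0.0410, 0.0405 and 0.0514 and Sec23b of 0.0409, 0.0497 and 0.0448, with a difference of -0.000817 (exact permutation test, two-sided p = 0.9, adjusted p = 0.9). The test takes the values as unpaired, although both genes of a pair were read in the same libraries. In both pairs the rates overlapped between the labeled libraries, while the levels in these libraries did not. The levels of Sec23a and Sec23b were not as clearly apart in the unlabeled libraries. Sec23a was higher in unlabeled replicate 1. In unlabeled replicate 2 both had the same level (160.62 CPM relative to counted reads), above the highest labeled level of Sec23a (154.136). Within labeled libraries, the rate of Sar1b was above that of Sar1a in 3 of 3, and the rate of Sec23a above that of Sec23b in 2 of 3.

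Among the 4 COPI genes over the coverage minimum, Copb2 had the highest rate with 0.0414, 0.0431 and 0.0524 in the labeled and 0.000139 and 0.000767 in the unlabeled libraries (log2 odds 0.25 ± 0.091, SE, limma adjusted p = 0.0685). Copb1 had rates of 0.0391, 0.0402 and 0.0486 in the labeled libraries and Copa a mean of 0.0443. None of these 3 was called. The other 4 were under the minimum. In Copz2 the rate was 0.0205 ± 0.00416, and in Copz1 it was 0.0335 ± 0.00252 (SD, n = 3). Copg1 and Copg2 were read at 0.0494 ± 0.00398 and 0.0264 ± 0.00935, the latter on as few as 64 covered T positions.

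At the entry into the ER, Srp19, an RNA-binding scaffold protein of the particle, had the highest rate of all 30 members. It was 0.0431, 0.050 and 0.0525 in the labeled and 0.00015 and 0.000368 in the unlabeled libraries (log2 odds 0.34 ± 0.088, SE, limma adjusted p = 0.0153), and the call held in each of the 7 alternatives that covered it. Srp14 had rates of 0.0317, 0.0377 and 0.0334 in the labeled and 0.00162 and 0.000377 in the unlabeled libraries and was not called (log2 odds -0.18 ± 0.074, SE, limma adjusted p = 0.0984). Of signal peptidase, Spcs2 was above the median gene with 0.0417, 0.0455 and 0.0477 in the labeled and 0.00112 and 0.00144 in the unlabeled libraries (log2 odds 0.23 ± 0.066, SE, limma adjusted p = 0.0263). That call was lost in 3 of 8 alternatives. Spcs1 had rates of 0.0335, 0.0371 and 0.0407 in the labeled and 0.000114 and 0.000145 in the unlabeled libraries and was not called. Sec22b had rates of 0.0447, 0.0469 and 0.0490 in the labeled and 0.00123 and 0.00049 in the unlabeled libraries (log2 odds 0.29 ± 0.063, SE, limma adjusted p = 0.00605), and its call held in each of the 8 alternatives.

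Across the 30 members, the rate ran with the T percent of the interval (Spearman's rho 0.50, against 0.32 over 2123 genes) and weakly against the level (rho -0.28, against -0.21). With interval length, rho was 0.01 in the members and 0.21 over all genes. These correlations are across genes of the same libraries, and genes are not independent replicates. Tmed3 (23.9% T), Ssr2 (24.7%), Sec61a1 (25%) and Ssr4 (27.0%) had the T-poorest intervals. Of these, Ssr2 and Sec61a1 had rates of 0.0401 and 0.0419. The part of base composition in the rates was not tested.

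The wider pathway was read from a list of 75 genes that are not members, of which 73 were in the tables and 38 had enough coverage. Of these, 7 were below and 7 above the median gene (limma, same test), where 21.1% and 10.3% of all genes were called. The lowest rates were those of Rpn2 (0.00940, 0.0151 and 0.00701, log2 odds -1.98 ± 0.16), Emc10 (0.0130, 0.0113 and 0.0194, -1.46 ± 0.14) and Ddost (0.0217, 0.0205 and 0.0140, -1.09 ± 0.13, SE). Rpn2 and Ddost belong to the oligosaccharyltransferase, the enzyme that attaches N-glycans at the translocon. Of its covered subunits, 5 of 10 were called below and 0 above, and this share was not tested against that of all genes. The others were Ost4, Dad1 and Tusc3. Emc10 and Emc3 of the ER membrane complex were also below. The highest rates were those of Arf4 (0.050, 0.050 and 0.0501, log2 odds 0.39 ± 0.044), a GTPase of the COPI cycle, Kdelr3 (0.0520, 0.0472 and 0.0453, 0.33 ± 0.094), a receptor that retrieves ER residents, and Tfg (0.0507, 0.0483 and 0.0428, 0.31 ± 0.095, SE), an organiser of ER exit sites. Ssr4 and Rpn2, each the lowest covered gene of its list, had nearly equal rates (0.0104 and 0.0105), far under that of the pore gene Sec61a1 (0.0419). The other covered subunits of their complexes were higher. They ranged from 0.0401 (Ssr2) to 0.0432 (Ssr3) in TRAP and from 0.0187 (Ddost) to 0.0406 (Magt1) in the oligosaccharyltransferase.

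The comparison of reads asked whether S4U altered transcript levels. Of 52 members tested, 0 were higher and 0 lower in labeled libraries with edgeR's quasi-likelihood test at an adjusted p below 0.05, and the background was 0% of 9807 genes in each direction. DESeq2 called 0 members as well, and 13 genes higher and 7 lower in all. At an unadjusted p below 0.05, edgeR gave 4 members higher (background 2.84%) and 0 lower (background 3.12%), and DESeq2 gave 2 higher and 0 lower, with 198 and 196 of 9807 genes in all. The 4 are named here because of their values. They were Sec61g (log2 fold change 1.77 ± 0.51), Sec22b (0.77 ± 0.30), Tmed3 (0.64 ± 0.25) and Ssr1 (0.55 ± 0.23, SE), with edgeR adjusted p from 0.626 to 0.831. Sec61g rested on 26, 18 and 5 reads in the labeled and 7 and 5 in the unlabeled libraries. Fitted with the replicate number as a block, edgeR did call members, these 4 among them. That fit leaves 1 residual degree of freedom and is given with the dependence on processing.

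In 6 members, all labeled libraries lay above both unlabeled libraries in CPM relative to counted reads (11.5%, background 8.20%), and in 4 members below them (7.69%, background 13.1%). Over all 52 members the median log2 fold change was 0.20, with 34 above and 18 below 0, and over all genes it was 0.018. Neither share of non-overlap stood far from its background, and the median was not tested.

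More members were separated by the replicate number than by S4U. In 16 of 52 members, both libraries numbered 1, labeled and unlabeled, had a higher level than each of the other 3 libraries (30.8%, background 30.0%), and in 12 a lower one (23.1%, background 22.7%). The members thus moved with the replicate number as often as other genes did. Sec62, which with Sec63 serves post-translational entry, was read at 452, 177 and 154 in the labeled and 413 and 194 in the unlabeled libraries. Copz2, a COPI subunit, was read at 10.8, 77.0 and 53.4 in the labeled and 11.9 and 46.2 in the unlabeled libraries. The interval length moved with this split. Its median was 2096.5 bases in the 16 members and 456 in the 12, and 1348 against 900 bases in all genes. No source states what a replicate number stands for, and what sets the split was not tested.

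**Figure D4:**
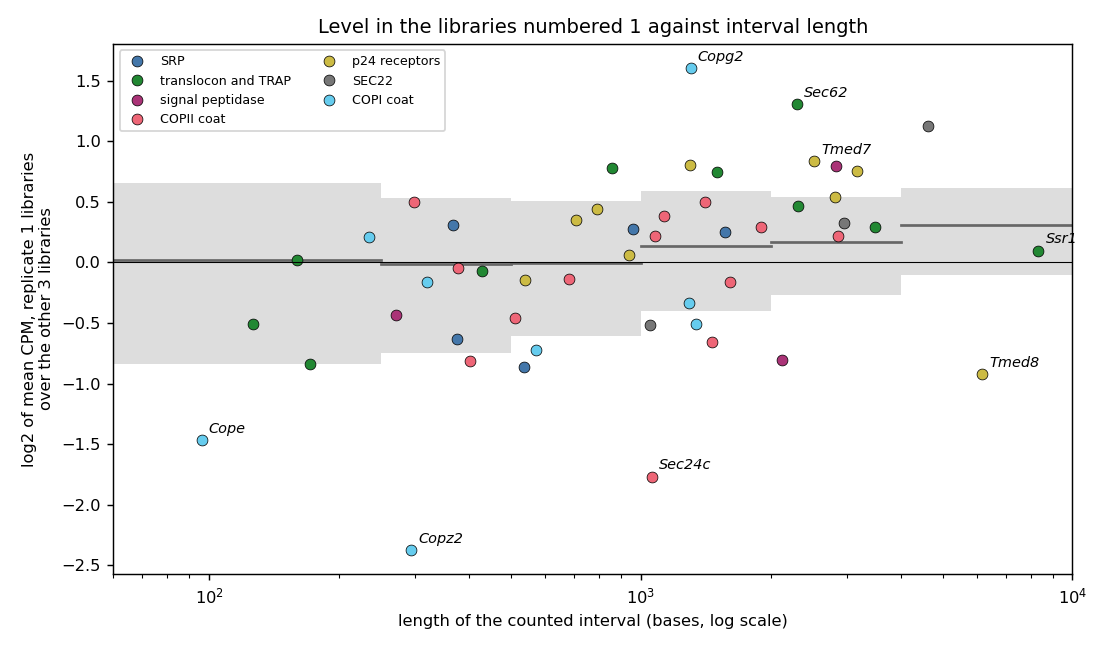
Log2 ratio of the mean level in both libraries numbered 1 to that in the other 3 libraries (vertical axis) against the length of the counted interval in bases (log scale), 1 point per member with a step, coloured by step. Grey bands are the quartiles and lines the medians of all genes tested in the same length range. Cope and Copz2, with short intervals, are among the 3 lowest, and Sec62 and Tmed7, with long intervals, lie above 0, with exceptions in both directions such as Sec13 (298 bases, 0.50) and Tmed8 (6177 bases, -0.92), while the medians of all genes shift from 0.020 in the shortest to 0.31 in the longest range.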

How the data were processed

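The authors extracted UMIs with umi-tools, mapped QuantSeq 3′ end reads to mm39 with SLAM-DUNK 0.4.3 and removed duplicates. The origin of the 3′ UTR intervals and the use of strand in counting are not given in the sources used here. They deposited counts of reads, covered T positions and conversions per interval without normalization. The deposited T>C rate is a fraction, conversions per covered T. The deposited CPM uses a larger read number than the counted reads, so CPM relative to counted reads was computed here. The sources name 3 preparations of CF but do not tie them to libraries, and p-values then measure only the spread between these libraries.

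Rows listed repeatedly were kept once. Of the intervals of a gene, that with the highest CPM, averaged over labeled libraries, stood for the gene. The T content of 20329 of 20329 intervals matched GRCm39. Coordinates of intervals are in mm39, counted from 1. Promoter motifs were searched on both strands and interval motifs on the strand of the transcript, and the RefSeq promoter table was matched by symbol. Of 58 intervals, 8 overlapped an exon on the other strand (Copg1, Copg2, Sec22c, Sec61a1, Sec61a2, Srp54c, Tmed1 and Tmed8) and 1 (Srp54c) an exon of another gene on its own strand, and their reads are uncertain to that extent.

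Labeled and unlabeled rates were compared with a beta-binomial test, with 1 overdispersion per interval. Rates were compared with the median gene by limma on log odds (pseudocount 0.5, at least 1000 covered T positions in each labeled library), and reads by edgeR (TMM, filterByExpr). All fits covered all genes. Models were fitted with edgeR 4.0.16, DESeq2 1.42.0 and limma 3.58.1 under R 4.3.3. The beta-binomial test ran in Python 3.11.15 with numba 0.67.0 and scipy 1.17.1, and tables and plots were made with pandas 2.3.3, matplotlib 3.10.9 and numpy 2.4.6. On simulated data, the beta-binomial test found 95.0% of 200 changed intervals among 3000 and called 8.04% of the unchanged, so it is liberal. For reads among 9807 genes, edgeR found 138 of 200 with 4 false calls, 103 with 2 false calls with the replicate block, and DESeq2 117 with 4. For rates against the median gene among 2123, limma found 200 of 200 with 11 false calls. All these counts hold for the sizes of difference that were put in, and recovery of smaller ones was not tested. For reads, the size put in was larger than the fold change of any member. For rates, it was larger than the log2 odds of every member called above the median gene. No shift with the replicate number was simulated, so the counts do not carry over to libraries that differ by it.

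Members and lists were chosen with earlier results of these data known. Values in every library are given for the member of each step with the highest level and the highest and lowest rate, for paralogs with enough coverage, for members called in the test of reads, and for the 3 highest and 3 lowest rates of the wider list. Members called against the median gene and those named for their reads or the replicate split were added after their values were seen. The low number of counted reads limits rates most in labeled replicate 3. Alternatives were other coverage minimums, the share of reads with a conversion, other centring, other tools and filters, the replicate block and each library left out.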

Additional observations from a re-analysis of the deposited data

How the results depend on the processing

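Labeling was called for 51 to 53 members with a library left out and for 30 with 1000 covered T positions required in every library, where fewer were tested. Members below the median gene numbered 3 to 4 with a library left out and 8 with the share of reads holding a conversion (29.9% of all genes). Members above numbered 4 to 6 with a library left out, 5 of 37 with a minimum of 500 (4.28% of all genes), 14 with the share of reads (26.1% of all genes) and 18 with centring on the overall rate. That centring moved the median of all genes by 0.13 (log2) and changed the split of all calls from 447 below and 218 above to 368 and 687, and it raised the count of members above by construction. With the share of reads, Sec61a1 (-0.454) and Ssr2 (-0.699) were called below. This share depends also on how many T positions a read holds. Of 230 settings of single members, 193 kept their call or lack of one, 14 of them with a change of sign in an uncalled value. For reads, each library left out gave 0 members higher and 0 lower. The median rate was 0.0405 to 0.0426 and the median level 132 to 138 CPM relative to counted reads with a library left out, or 11.2 on the scale of the deposited CPM. Of the 2 paralog pairs, 0 to 1 had non-overlapping rates with a labeled library left out, an alternative added after the data were seen. Without labeled replicate 1 or 3 it was 1.

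With the replicate number as a block, edgeR called 6 members higher (Sec13, Sec22b, Sec61g, Ssr1, Tmed3 and Tmed10-ps) and 1 lower (Sec23ip) at an adjusted p below 0.05, with 5.38% and 6.30% of all genes, and the beta-binomial comparison redone by limma with the block kept 52. The block leaves 1 residual degree of freedom. Deviations from the group means correlated at 0.78 for the number 1 and 0.64 for the number 2, but with 2 unlabeled libraries these mirror each other and labeled replicate 3 correlated at 0.48 with unlabeled replicate 2. The samples share only a number. Depth limits the 22 members under the coverage minimum, whose rates were not compared with the median gene.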

Other observations

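Features of the counted 3′ ends were set beside all genes of the same coverage, as a description. The polyadenylation signal AATAAA lay in the last 50 bases of the interval for 23 of 30 covered members (76.7%) and 70.7% of 2112 genes. ATTTA, the core of AU-rich elements, lay in the last 300 bases for 15 of 25 covered members with an interval of that length (60%), and for 50.7% of 1914 genes. TGTANATA, the site of Pumilio proteins, was found for 2 of 25 (8.0%) and 11.1%. None of these shares was tested.

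The shorter deposited intervals of Ssr4, which lie inside the one used, had a mean rate of 0.00997 and share most of its reads. Among genes of the wider list, TGACGTGG occurred in a promoter of 5 of 63 genes (7.94%), among them Arf1 and Gbf1, a GTPase of the COPI coat and its exchange factor, Kdelr3, a retrieval receptor, and the Golgi SNARE Stx5a with its partner Scfd1.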
